A study of Mus musculus with 12 samples.

Results

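Scd1, Pcx and Gpd1, 3 enzyme genes of lipid and central carbon metabolism, were several times higher in whole blood of mice given CPI-0209 than in blood of vehicle mice, while no difference passed the test for most other enzymes of fatty acid synthesis. The set described here holds 10 genes of fatty acid, pyruvate and glycerol phosphate metabolism, namely Scd1, Scd2, Fasn, Acaca, Acly, Elovl6, Srebf1, Pcx, Gpd1 and Gpd2, out of 55367 genes counted. They were taken by gene symbol. Scd1, Pcx and Gpd1 were chosen by their measured rise over vehicle in these same libraries, so their levels against vehicle are a description with no p-value. The other 7 were added with results of these libraries known. All 10 passed the filter on low counts, which kept 13384 genes.

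CPI-0209 (tulmimetostat) inhibits EZH2 and EZH1, the catalytic subunits of Polycomb repressive complex 2, which place the repressive methyl mark on lysine 27 of histone H3. The mice were CB17-SCID, a strain that makes almost no B or T lymphocytes, and all of them, vehicle mice included, carried a xenograft of the human bladder cancer line HT1376. There were 4 groups of 3 libraries: vehicle, and CPI-0209 given orally at 35 mpk (mg per kg) once a day over 11 days, with blood drawn 1, 6 or 24 h after the final dose. The labels give neither the time at which vehicle mice were bled nor whether the 3 libraries of a group came from separate mice, so p-values measure the spread between these libraries.

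As background, Acly cleaves citrate in the cytosol to acetyl-CoA, Acaca carboxylates it to malonyl-CoA, and Fasn joins these units into palmitate. Elovl6 lengthens palmitate, and Scd1 and Scd2 put a double bond into saturated fatty acyl-CoAs. Pcx (pyruvate carboxylase) turns pyruvate into oxaloacetate in mitochondria and so feeds citrate formation. Gpd1 makes glycerol 3-phosphate, the backbone of glycerolipids, in the cytosol, and Gpd2 oxidises it at the inner mitochondrial membrane, the pair together moving reducing equivalents into mitochondria. Srebf1 encodes SREBP-1, the transcription factor best known for driving fatty acid synthesis genes in liver and fat. In blood, RNA comes from white cells, platelets and reticulocytes, the youngest circulating red cells, which still carry RNA and some mitochondria.

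On GRCm38 the genes that led the set were Scd1 (ENSMUSG00000037071, chromosome 19, 44394455 to 44407879, reverse strand), Pcx (ENSMUSG00000024892, chromosome 19, 4510472 to 4621752, forward strand) and Gpd1 (ENSMUSG00000023019, chromosome 15, 99717515 to 99725005, forward strand). Scd2 lay close to Scd1 on chromosome 19, from 44293674 to 44306864 on the forward strand. Fasn (120805846 to 120824547), Acaca (84129672 to 84401651), Acly (100476353 to 100528000) and Srebf1 (60199089 to 60222581) lay on chromosome 11. Gpd2 (57237635 to 57370719) lay on chromosome 2 and Elovl6 (129532355 to 129638495) on chromosome 3. The regions differ over the set in base composition: the 250 bases before 11 annotated starts of 7 members (RefSeq, GRCm38.p6) held 39.2% to 71.2% G and C, against a median of 52.4% over 32851 mouse starts. The 39.2% came from the only Acaca start, whose 250 bases (84195188 to 84195437) lie inside the annotated gene. The other starts held 48.8% or more. Scd1, Scd2 and Gpd1 were not among the 7.

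Pcx is shown with both of its starts, because it was much higher after CPI-0209, and Fasn beside it, because no difference passed for it. Each line gives 250 bases ending just before the start, 5′ to 3′ on the gene's own strand, and capitals mark every match on either strand to the sterol response element TCACNCCAC, to the E-box hexamer CACGTG, to the box CCAAT, to the GC box written GGGCGG and to the GATA motif written AGATAA.
Pcx, first start (GRCm38.p6 chr19:4510222-4510471, forward strand): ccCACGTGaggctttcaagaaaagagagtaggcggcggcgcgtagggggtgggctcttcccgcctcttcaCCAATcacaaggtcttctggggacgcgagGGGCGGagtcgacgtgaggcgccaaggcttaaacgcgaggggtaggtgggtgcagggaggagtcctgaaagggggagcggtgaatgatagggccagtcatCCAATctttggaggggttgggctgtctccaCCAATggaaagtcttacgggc
Pcx, second start (GRCm38.p6 chr19:4594069-4594318, forward strand): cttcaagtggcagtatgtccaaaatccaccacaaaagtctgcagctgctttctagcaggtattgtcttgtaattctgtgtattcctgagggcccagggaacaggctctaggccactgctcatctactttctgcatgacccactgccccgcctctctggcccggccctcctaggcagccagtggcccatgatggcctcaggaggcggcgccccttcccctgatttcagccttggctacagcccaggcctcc
Fasn (GRCm38.p6 chr11:120824548-120824797, reverse strand): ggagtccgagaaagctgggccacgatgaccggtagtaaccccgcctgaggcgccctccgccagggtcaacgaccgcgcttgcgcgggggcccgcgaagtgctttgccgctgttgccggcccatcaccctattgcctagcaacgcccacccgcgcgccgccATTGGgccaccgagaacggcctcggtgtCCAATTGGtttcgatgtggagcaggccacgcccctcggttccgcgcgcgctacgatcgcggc

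The first Pcx start held 1 CACGTG, 3 CCAAT and 1 GGGCGG, the second none of the 5, and Fasn 3 CCAAT, of which 2 overlap in CCAATTGG. Over the 32851 starts, 6.02% held CACGTG, 33.8% CCAAT, 32.7% GGGCGG, 9.99% AGATAA and 1.05% TCACNCCAC. No start of the 7 members held TCACNCCAC in these 250 bases. These matches describe letters only, and the counts do not say which Pcx start was used.

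Levels are CPM (counts brought to a common library size with TMM factors) unless another scale is named. Scd1, the desaturase, was at 8.48, 8.60 and 4.96 CPM in the 3 vehicle libraries, 31.7, 24.5 and 23.8 CPM at 1 h, 42.4, 44.8 and 64.3 CPM at 6 h and 21.4, 24.0 and 24.4 CPM at 24 h. Every treated library stood above every vehicle library, the 6 h libraries were the highest, and the 24 h libraries lay within a narrow band. The log2 fold change over vehicle was 1.85 (SE 0.24) at 1 h, 2.77 (SE 0.25) at 6 h and 1.66 (SE 0.24) at 24 h, or 3.61-fold, 6.84-fold and 3.15-fold.

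Pcx was at 2.32, 4.62 and 6.11 CPM in vehicle and 25.2, 23.5 and 25.3 CPM at 1 h. The 6 h libraries gave 39.7, 38.1 and 48.2 CPM and the 24 h libraries 7.22, 12.997 and 22.03 CPM. The 1 h libraries were close together, whereas the 24 h libraries were widely spread, the lowest of them only just above the highest vehicle library. Its log2 fold change over vehicle was 2.50 (SE 0.37) at 1 h, 3.27 (SE 0.38) at 6 h and 1.68 (SE 0.37) at 24 h. At 24 h the value without the first library was 2.00.

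Gpd1 was the lowest of the 3 and nearly absent from vehicle blood, with 6, 7 and 3 counts, or 0.697, 0.752 and 0.382 CPM. It stood at 4.36, 4.33 and 3.02 CPM at 1 h, 7.02, 7.30 and 12.6 CPM at 6 h and 2.56, 3.03 and 4.38 CPM at 24 h. No treated library overlapped vehicle, and the third 6 h library, the highest for Gpd1, was also the highest for Scd1 and Pcx. Its log2 fold change over vehicle was 2.63 (SE 0.43) at 1 h, 3.83 (SE 0.42) at 6 h and 2.39 (SE 0.43) at 24 h, each resting on 16 counts over the vehicle libraries.

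**Figure D1:**
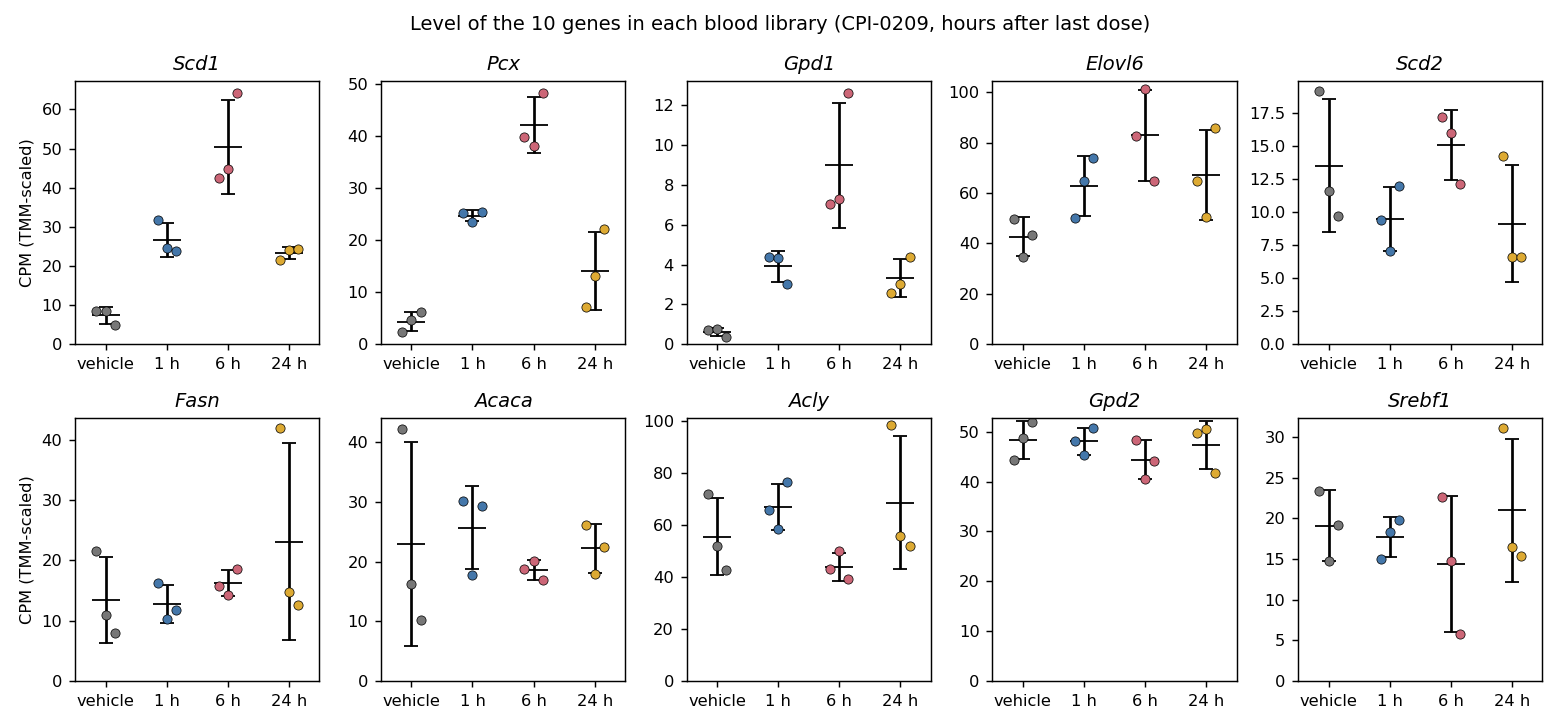
Level of each of the 10 genes in CPM (vertical axis, starting at 0) in the 3 libraries of each group (horizontal axis: vehicle, then 1, 6 and 24 h after the last dose), with 1 point a library, the mean as a horizontal line and 1 SD as bars. Scd1, Pcx and Gpd1 have no treated point at or below a vehicle point and are highest at 6 h, and Gpd2 stays between 40.6 and 52.0 CPM in all 12 libraries.

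The other 7 members were added with results of these libraries known, so their tests are not fully independent of the choice. Of these, 1 (Elovl6) passed an adjusted p of 0.05 in the edgeR quasi-likelihood test as higher than vehicle at 6 h. None passed at 1 h or 24 h or as lower. Over all tested genes 0.179% were called higher at 1 h, 4.06% at 6 h and 0.105% at 24 h. Scd1, Pcx, Gpd1 and Elovl6 were the 4 members with all treated libraries above all vehicle libraries at each time, a pattern shown by 8.92% of tested genes at 1 h, 15.8% at 6 h and 6.34% at 24 h. Nothing is read from that for the 3 chosen genes, since their choice used these contrasts. The 3 comparisons share the vehicle libraries.

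The collection times were then compared with each other, in contrasts that did not choose the genes although they share treated libraries with those that did. Scd1 was lower at 24 h than at 6 h, averaging 23.3 ± 1.62 CPM at 24 h and 50.5 ± 11.99 CPM at 6 h (SD, n = 3 each). The log2 fold change was -1.12 (SE 0.23, edgeR adjusted p = 0.0324). Pcx was lower too, at 14.1 ± 7.47 CPM at 24 h and 42.0 ± 5.42 CPM at 6 h (SD, n = 3 each). The log2 fold change was -1.59 (SE 0.34, edgeR adjusted p = 0.0392). Gpd1 narrowly missed the threshold at 3.32 ± 0.941 CPM at 24 h and 8.97 ± 3.14 CPM at 6 h (log2 fold change -1.44, SE 0.36, edgeR adjusted p = 0.0520). All 3 genes had every 24 h library below every 6 h library, which 12% of tested genes had, and 1.25% of tested genes were called lower.

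The contrast of 24 h against 6 h called 1.76% of tested genes in either direction, and 2 of the 10 members. Both Scd1 and Pcx kept their calls in only 3 of 12 fits that each left out 1 library (those without vehicle library 1, vehicle library 3 or 24 h library 3), and neither passed when only the 2 groups were fitted (adjusted p = 0.194 for both, where no gene passed). Scaling by library totals alone gave Scd1 -0.60 (adjusted p = 0.102) and Pcx -1.16 (adjusted p = 0.0197), a scaling that moved the median of all genes by 0.50 on the log2 scale.

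Between 6 h and 1 h none of the 10 passed, against 0.493% of tested genes called in either direction. Scd1 averaged 50.5 ± 11.99 CPM at 6 h and 26.7 ± 4.38 CPM at 1 h (log2 fold change 0.92, SE 0.23, edgeR adjusted p = 0.0787), and its libraries did not overlap. Pcx gave 0.77 (SE 0.33, edgeR adjusted p = 0.210) and Gpd1 1.20 (SE 0.35, edgeR adjusted p = 0.101), also with every 6 h library above every 1 h library, as in 18.1% of tested genes. Without 24 h library 1, Scd1 passed at 0.88 (adjusted p = 0.0322), and it passed without 24 h library 3 as well. Between 24 h and 1 h no member passed, against 0.0224% of tested genes, and Scd1 differed by -0.20 (SE 0.23).

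**Figure D2:**
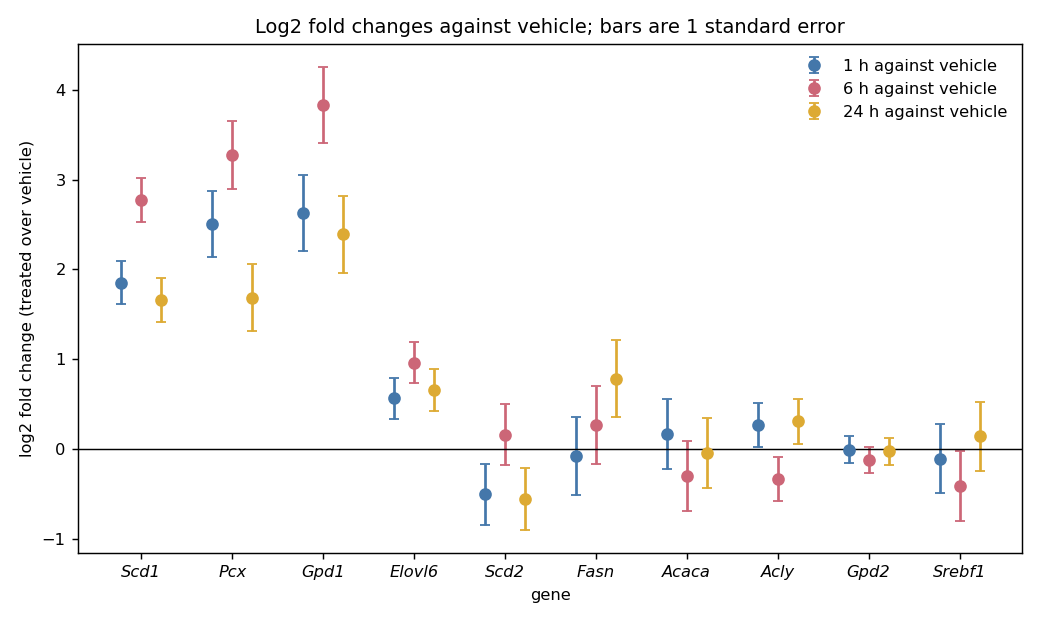
Log2 fold change over vehicle (vertical axis) of each of the 10 genes (horizontal axis) at 1, 6 and 24 h, with bars of 1 standard error from the edgeR fit. Scd1, Pcx and Gpd1 lie between 1.66 and 3.83, Elovl6 between 0.56 and 0.96, and the other 6 between -0.56 and 0.78.

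Elovl6, whose product makes a long saturated acyl-CoA on which Scd1 acts, was the only 1 of the other 7 members to pass against vehicle. It stood at 49.9, 34.5 and 43.5 CPM in vehicle and 50.1, 64.7 and 73.9 CPM at 1 h. The 6 h libraries gave 82.7, 101 and 64.9 CPM and the 24 h libraries 65.0, 50.6 and 85.8 CPM. The lowest 1 h and 24 h libraries were level with the highest vehicle library, and the 6 h libraries were clearly above it. At 6 h the log2 fold change over vehicle was 0.96 (SE 0.23, edgeR adjusted p = 0.0296). It did not pass at 1 h, with 0.56 (SE 0.23) and an edgeR adjusted p of 0.609, or at 24 h, with 0.65 (SE 0.23) and an edgeR adjusted p of 0.470. The 6 h call was lost without any 1 of the vehicle libraries or of 6 h libraries 1 and 2, and under library totals, where the value was 0.50 (adjusted p = 0.130).

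The core enzymes of fatty acid synthesis did not pass in any of the 6 comparisons. Fasn was at 21.5, 11.0 and 7.89 CPM in vehicle and 16.2, 10.3 and 11.8 CPM at 1 h. Libraries of 6 h gave 15.8, 14.2 and 18.5 CPM and the 24 h libraries 41.9, 14.7 and 12.7 CPM. The first 24 h library alone was high, and its log2 fold change over vehicle at 24 h, 0.78 (SE 0.43, edgeR adjusted p = 0.669), was 0.030 without that library. Acaca was at 42.3, 16.2 and 10.2 CPM in vehicle, 30.1, 17.7 and 29.3 CPM at 1 h, 18.8, 20.2 and 16.8 CPM at 6 h and 26.2, 18.0 and 22.5 CPM at 24 h. The vehicle libraries spanned the treated range, and log2 fold changes over vehicle ran between -0.30 and 0.16 (SE 0.39 each).

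Acly had its lowest mean at 6 h, though no contrast passed. It was at 71.9, 52.1 and 42.8 CPM in vehicle and 65.9, 58.6 and 76.5 CPM at 1 h. At 6 h it was at 43.0, 49.9 and 39.2 CPM and at 24 h at 98.4, 55.7 and 52.0 CPM. Its 6 h libraries lay below all of those at 1 h, as in 13.8% of tested genes, and its 24 h libraries above all of those at 6 h, as in 10.5%, with log2 fold changes of -0.61 for 6 h against 1 h (SE 0.25, edgeR adjusted p = 0.190) and 0.64 for 24 h against 6 h (SE 0.25, edgeR adjusted p = 0.153). The second of these passed without 24 h library 3, with no filter on low counts and under library totals, where it was 1.22 (adjusted p = 0.0227), and it was 0.31 without 24 h library 1. The first passed when only the 2 groups were fitted.

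Scd2, the second desaturase, was at 19.2, 11.6 and 9.67 CPM in vehicle, 9.40, 7.07 and 11.95 CPM at 1 h, 17.2, 15.96 and 12.1 CPM at 6 h and 14.2, 6.61 and 6.56 CPM at 24 h, with all groups overlapping vehicle. Its log2 fold changes over vehicle were -0.51 (SE 0.34), 0.16 (SE 0.34) and -0.56 (SE 0.34) at 1, 6 and 24 h, with edgeR adjusted p of 0.718 or more. Gpd2, the mitochondrial partner of Gpd1, stayed close to its vehicle level, at 44.3, 48.7 and 52.0 CPM in vehicle and 48.1, 45.4 and 50.7 CPM at 1 h. At 6 h it gave 48.4, 40.6 and 44.1 CPM and at 24 h 49.7, 50.5 and 41.7 CPM. Its 3 log2 fold changes over vehicle lay between -0.12 and -0.0080 (SE 0.15 each). Gpd2 passed for 24 h against 6 h under library totals, at 0.64 (adjusted p = 0.0470).

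Srebf1, which encodes the regulator of this pathway, was at 23.4, 14.7 and 19.2 CPM in vehicle and 14.98, 18.2 and 19.8 CPM at 1 h. The 6 h libraries gave 22.5, 14.7 and 5.78 CPM and the 24 h libraries 31.1, 16.5 and 15.3 CPM. The 6 h libraries were spread over the whole range and the third was the lowest of the 12, while the same library was the highest for Scd1, Pcx and Gpd1. The log2 fold change at 6 h was -0.42 (SE 0.39, edgeR adjusted p = 0.604). Srebf1 overlaps Rai1 on the other strand, and no source used here gives the strand of the counting, so reads of the shared stretch cannot be told apart.

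As a set, the 10 members had a median log2 fold change over vehicle of 0.22 at 1 h, 0.21 at 6 h and 0.48 at 24 h, against -0.021, -0.043 and 0.0067 over all tested genes. Scd1, Pcx and Gpd1 were chosen for their rise in these contrasts, which lifts the medians of the 10, so nothing is read from them. For the 7 without Scd1, Pcx and Gpd1 the medians were -0.0080, -0.12 and 0.14.

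For a rough comparison of different genes, levels were divided by the joint length of all annotated exons of a gene. This can exceed the length of any 1 transcript. For Acaca it was 17074 bases, while the longest transcript held 9464 stretches of 50 bases, so its level and place may be understated. Acly, Gpd2 and Elovl6 were the highest in vehicle, at 10.5, 7.38 and 6.63 CPM per kb. They were followed by Srebf1 (3.39), Scd2 (2.47), Scd1 (1.502), Acaca (1.34), Fasn (1.23) and Pcx (0.915), with Gpd1 last at 0.206 CPM per kb. At 6 h the order was Elovl6 (12.9), Scd1 (10.3), Pcx (8.84), Acly (8.34) and Gpd2 (6.77 CPM per kb), then Gpd1 (3.03), Scd2 (2.76), Srebf1 (2.55), Fasn (1.48) and Acaca (1.09). Among neighbours in the vehicle order, Gpd2 and Elovl6, Srebf1 and Scd2, and the run from Scd1 to Pcx overlapped between libraries. At 6 h the first 4 overlapped each neighbour, as did the run from Gpd1 to Fasn. At 1 h and at 24 h Acly led the order, followed by Elovl6, Gpd2 and Scd1, and Pcx stood next to Scd1 at 1 h (5.19 CPM per kb) and below Srebf1 at 24 h (2.96 CPM per kb).

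Between the desaturases, Scd1 made up 38.3 ± 6.30% (SD, n = 3, as for each share that follows) of the Scd1 and Scd2 level per kb in vehicle, 75.8 ± 5.94% at 1 h, 78.3 ± 6.46% at 6 h and 74.5 ± 10.2% at 24 h. In the same way Gpd1 made up 2.76 ± 1.00% of the Gpd1 and Gpd2 level in vehicle, 15.3 ± 3.17% at 1 h, 30.5 ± 7.43% at 6 h and 13.6 ± 4.59% at 24 h. These ratios do not depend on how libraries were scaled, and no treated library overlapped vehicle in either. Both contain a gene chosen for its difference and are given without a test. Of 4683 stretches of 150 bases in Scd1 transcripts 36 (0.769%) also occur in Scd2, Scd3 or Scd4, and none of those of Scd2 or Gpd1 occur in the copies searched, so few reads could be split between copies.

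The rest of the pathways was read from 9 lists of genes outside the set. Among 25 tested genes of pyruvate and citrate metabolism 2 were called higher at 6 h than in vehicle and none lower, against 4.06% called higher and 0.785% lower over all tested genes. Mpc2, a subunit of the carrier that brings pyruvate into mitochondria, averaged 90.6 ± 7.71 CPM at 6 h and 23.2 ± 5.08 CPM in vehicle (SD, n = 3 each; log2 fold change 1.96, SE 0.29, adjusted p = 0.00180, edgeR). Pck2, the mitochondrial enzyme that converts oxaloacetate to phosphoenolpyruvate, averaged 98.6 ± 10.9 CPM at 6 h and 31.1 ± 10.5 CPM in vehicle (SD, n = 3 each; log2 fold change 1.67, SE 0.29, adjusted p = 0.00383, edgeR). Mpc2 was lower at 24 h, at 28.0 ± 12.3 CPM, than at 6 h, at 90.6 ± 7.71 CPM (log2 fold change -1.70, SE 0.29, adjusted p = 0.0207, edgeR). That call was lost without any 1 of the 6 h libraries or of 24 h libraries 1 and 2.

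Of 25 tested genes of fatty acid synthesis and desaturation outside the set, 1 was called higher at 6 h than in vehicle and 1 lower at 24 h than at 6 h. These counts are near the shares over all tested genes, 4.06% and 1.25%, and say nothing about the list. Acsl1, which activates fatty acids to acyl-CoA, averaged 1127 ± 167 CPM at 6 h and 426 ± 30.2 CPM in vehicle (SD, n = 3 each; log2 fold change 1.40, SE 0.29, adjusted p = 0.0140, edgeR), and lost its call without vehicle library 1 or 2 or 6 h library 1 or 2. Fads1, a desaturase of polyunsaturated fatty acids, averaged 10.5 ± 2.43 CPM at 24 h and 23.0 ± 1.05 CPM at 6 h (SD, n = 3 each; log2 fold change -1.13, SE 0.22, adjusted p = 0.0285, edgeR). Its call was kept in 5 of 12 fits that left out 1 library, those without any 1 vehicle library, 1 h library 2 or 24 h library 3, and was lost under library totals (-0.65, adjusted p = 0.0509).

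At 6 h, 1 gene was called lower than vehicle in each of 2 lists of fat use, against 0.785% of all tested genes. Cpt1a, which admits long-chain fatty acids to mitochondria for oxidation, was 1 of 14 tested oxidation genes and averaged 55.1 ± 2.75 CPM at 6 h and 90.4 ± 4.96 CPM in vehicle (SD, n = 3 each; log2 fold change -0.71, SE 0.16, adjusted p = 0.0221, edgeR). Plin2, a coat protein of lipid droplets, was 1 of 8 tested genes of lipolysis and lipid droplets and averaged 97.2 ± 16.1 CPM at 6 h and 191 ± 60.4 CPM in vehicle (SD, n = 3 each; log2 fold change -0.98, SE 0.20, adjusted p = 0.0140, edgeR). Both were called higher at 24 h than at 6 h, as were 0.508% of all tested genes. Cpt1a averaged 102 ± 23.3 CPM at 24 h and 55.1 ± 2.75 CPM at 6 h (log2 fold change 0.89, SE 0.16, adjusted p = 0.0269, edgeR). Plin2 averaged 238 ± 11.4 CPM at 24 h and 97.2 ± 16.1 CPM at 6 h (log2 fold change 1.29, SE 0.21, adjusted p = 0.0201, edgeR). Plin2 was also lower at 6 h than at 1 h, averaging 97.2 ± 16.1 CPM at 6 h and 194 ± 13.8 CPM at 1 h (log2 fold change -0.9995, SE 0.20, adjusted p = 0.0498, edgeR). The call of Cpt1a at 6 h was lost without any 1 of the vehicle or 6 h libraries, and that of Plin2 without vehicle library 3 or 6 h library 1 or 2, its value being -0.71 without vehicle library 3. Of fits that left out 1 library, 5 of 12 kept the 24 h call of Cpt1a (those without any 1 vehicle library, 1 h library 2 or 24 h library 3), 7 of 12 that of Plin2 (not those without any 1 6 h library or 24 h library 1 or 2) and 4 of 12 its 6 h against 1 h call (those without vehicle library 2 or 3 or 24 h library 1 or 3). That last call was also lost with DESeq2 size factors.

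Among 20 tested regulators of these pathways (SREBP, LXR, ChREBP and AMPK genes), Prkab1, an AMPK subunit, was called higher at 6 h than in vehicle, averaging 82.7 ± 5.27 CPM at 6 h and 48.3 ± 2.38 CPM in vehicle (SD, n = 3 each; log2 fold change 0.78, SE 0.15, adjusted p = 0.00946, edgeR). Mlxip, a glucose-sensing factor related to ChREBP, was called lower at 6 h than at 1 h, averaging 66.3 ± 4.85 CPM at 6 h and 140.3 ± 16.5 CPM at 1 h (SD, n = 3 each; log2 fold change -1.08, SE 0.20, adjusted p = 0.0359, edgeR). Of 18 tested genes of glycerolipid synthesis, Lpin2, a phosphatidate phosphatase, was called higher at 6 h, averaging 168 ± 7.96 CPM at 6 h and 108 ± 6.44 CPM in vehicle (SD, n = 3 each; log2 fold change 0.64, SE 0.14, adjusted p = 0.0158, edgeR). The calls of Prkab1 and Lpin2 were lost under library totals, at 0.32 (adjusted p = 0.192) and 0.18 (adjusted p = 0.437). Without 1 library, Prkab1 lost its call where vehicle library 1 or 2 was left out, and Lpin2 where any 1 vehicle library or 6 h library 1 or 2 was. Over all tested genes 4.06% were called higher at 6 h than in vehicle, close to 1 of 20 and 1 of 18, and 0.359% lower at 6 h than at 1 h. Mlxip kept its call in 3 of 12 such fits, those without vehicle library 3 or 24 h library 1 or 3. In vehicle Mlxip was at 71.1, 65.9 and 77.7 CPM, near its 6 h level, so the 1 h libraries were the ones that stood apart. No contrast of Mlxip with vehicle passed. None of 20 tested genes of cholesterol synthesis, 7 of LXR targets and 6 of biotin-dependent carboxylases and biotin enzymes passed in any of the 6 comparisons.

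The medians of the 9 lists at 6 h against vehicle ran between -0.43 (oxidation) and 0.12 (cholesterol synthesis), against -0.043 over all tested genes. Of all tested genes 4.84% were called at 6 h in either direction. Scaling by library totals turned the 543 higher and 105 lower calls at 6 h into 344 and 1488, so the split of directions over the whole blood at 6 h rests on the scaling, and the median of all genes moved by -0.46 on the log2 scale. Under that scaling Scd1, Pcx and Gpd1 at 6 h still had log2 fold changes over vehicle of 2.31, 2.82 and 3.37.

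**Figure D3:**
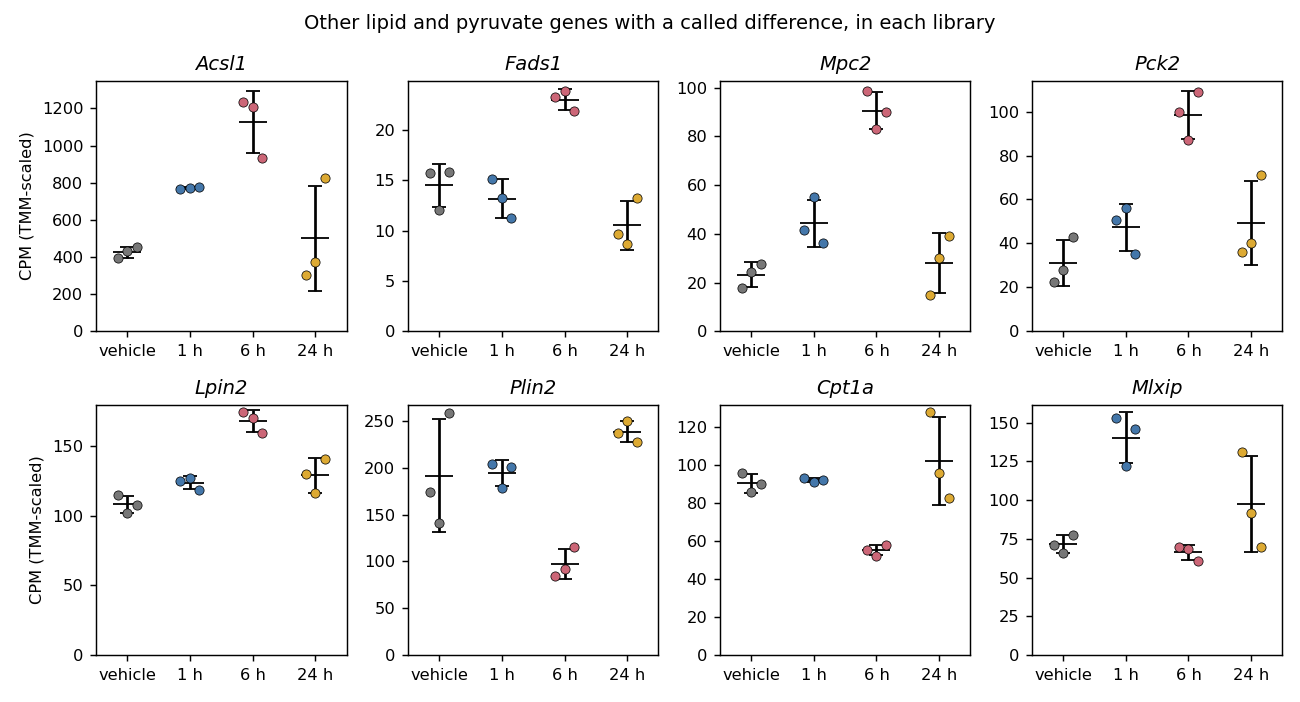
Level in CPM (vertical axis, starting at 0) of 8 genes outside the set with a called difference, in each library of the 4 groups (horizontal axis), with the mean as a line and 1 SD as bars. Mpc2 and Pck2 are highest in the 3 libraries at 6 h, and Cpt1a and Plin2 are lowest there, Cpt1a at 52.4 to 57.8 CPM.

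Reticulocyte genes moved with these genes at 6 h. The summed level of 30 reticulocyte genes was 100735 to 113904 CPM in vehicle, 100790 to 120517 CPM at 1 h and 172221 to 197244 CPM at 6 h. At 6 h 16 of the 30 were called higher than vehicle, against 4.06% of all tested genes. For 24 h against 6 h 9 of the 30 were called lower, against 1.25% of all tested genes. These sums and calls use TMM factors and were not repeated with library totals, so their size depends on the scaling. The median log2 fold change of the 30 at 6 h over vehicle was 1.25, and library totals moved the median of all genes there by -0.46. At 1 h none of the 30 passed, but their median log2 fold change over vehicle was 0.39, and their mean log2 CPM was 8.97, 9.08 and 8.86 at 1 h, against 8.37, 8.43 and 8.64 in vehicle. In bulk blood a change in the number of cells of a type and a change in RNA per cell cannot be told apart. The 24 h libraries had sums of 52600, 73168 and 159464 CPM. In the same order Pcx stood at 7.22, 12.997 and 22.03 CPM, Gpd1 at 2.56, 3.03 and 4.38 CPM and Scd1 at 21.4, 24.0 and 24.4 CPM. The part of reticulocytes in the levels of Scd1, Pcx and Gpd1 was not tested.

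**Figure D4:**
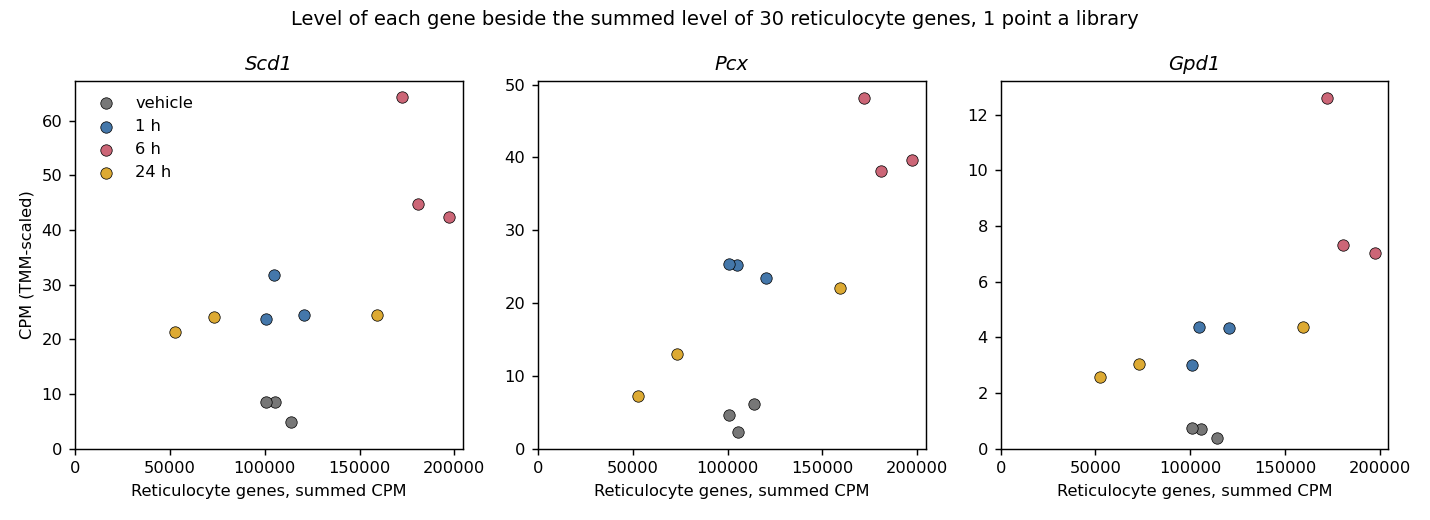
Level of Scd1, Pcx and Gpd1 in CPM (vertical axis) against the summed CPM of 30 reticulocyte genes (horizontal axis), with 1 point a library, coloured by group. The vehicle and 1 h points share the same stretch of the horizontal axis, 100735 to 120517 CPM, the 6 h points lie to their right, and the 24 h points spread from 52600 to 159464 CPM.

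Fat and liver, in which these enzymes are abundant, were looked for by their markers. Of 12 adipocyte genes, Adipoq (3 counts), Cfd (8 counts), Cidec (2 counts) and Adrb3 (1 count) were found in the first 24 h library and in no other, Car3 had 23 counts there and at most 2 in any other group, and Lep was at 0 everywhere. The rest of the list was mixed in that library. Plin1 had 0 counts, and Fabp4 (4.77 CPM), Pparg (6.64 CPM) and Retn (1.05 CPM) lay within the range of vehicle. Plin4 (6.99 CPM) lay above that range and Cd36 (102 CPM) below it. The summed adipocyte level was 185 to 201 CPM in vehicle, 278 to 343 CPM at 1 h, 586 to 782 CPM at 6 h and 126 to 413 CPM at 24 h. Cd36, which reticulocytes and platelets also carry, made most of it and was the only marker of the list called at 6 h. That 24 h library also had the highest Fasn, Acly and Srebf1 of the 12, and the part of fat cells in those values was not tested. The summed level of 12 hepatocyte genes was 65.6 CPM in the first 1 h library, with albumin (Alb) its largest part, and at most 2.21 CPM in any other. Without that library the 1 h log2 fold changes were 1.73 for Scd1, 2.51 for Pcx and 2.56 for Gpd1.

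Of the other blood cell lists, 1 of 14 neutrophil genes (Mmp8) was called higher and 1 of 12 monocyte genes (Ccr2) lower at 6 h than in vehicle. Over all tested genes 4.06% were called higher and 0.785% lower, and these single calls say little about their lists. Hbb-bs and Hbb-bt, 2 of 4 adult globin genes, were called higher at 6 h than in vehicle. Both were called lower at 24 h than at 6 h, as were 1.25% of all tested genes. The genes named here were picked after their values were seen. None of 12 platelet, 8 NK cell and 3 tested lymphocyte genes passed. Ezh2, a target of CPI-0209, showed no difference past the threshold in any comparison, nor did Ezh1. Total counts ran from 6496573 to 9978215 a library, and TMM factors were 0.766 to 0.812 at 6 h, 1.03 to 1.12 in vehicle and spread from 0.856 to 1.33 at 24 h.

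Across the 12 libraries Scd1 and Gpd1 had nearly the same profile of log2 CPM (Pearson's r = 0.991), with r = 0.916 for Pcx and Gpd1 and r = 0.888 for Scd1 and Pcx. These describe libraries in which all 3 were chosen for being higher than vehicle, and the points share library scaling and group. Elovl6 was the next nearest to Gpd1 (r = 0.731), and Fasn, Acaca, Acly, Scd2, Gpd2 and Srebf1 had r with Scd1 between -0.440 and 0.295. Among 9767 genes outside the set with a mean log2 CPM of at least 1, the 5 most like Scd1 were Slc4a5 (0.974), Runx1t1 (0.972), Arhgap5 (0.950), Cystm1 (0.947) and Gstp1 (0.946). The 5 most like Gpd1 were Runx1t1 (0.976), Slc4a5 (0.969), S100a13 (0.965), Arhgap5 (0.963) and Rundc3a (0.963), of which 3 were shared with Scd1. Those most like Pcx were Rragd (0.981), Calcrl (0.973), Acadsb (0.971), Ibtk (0.968) and Ubl7 (0.967), none of which was among the 5 of either other gene. Acadsb encodes an acyl-CoA dehydrogenase of branched-chain amino acid breakdown and Rragd a Rag GTPase of the lysosomal amino acid signal.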

How the data were processed

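RNA of whole blood was extracted with PAXgene chemistry, depleted of ribosomal RNA and sequenced in pairs of 150 bases on an Illumina HiSeq, per the labels' protocols. The authors deposited whole-number counts for the 55367 genes, under mouse Ensembl identifiers, as raw totals per gene with no scaling. RSEM is named, per the submitters' processing notes, so the counts may be rounded estimates. These notes list the human build hg38 although the gene identifiers are mouse. The sources used here do not give the aligner, the annotation, the mouse build or the strand. GENCODE M21 (GRCm38) held 55111 of the identifiers and gave positions and exon lengths.

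Counts were analysed with edgeR 4.0.16 in R 4.3.3 (limma 3.58.1). After filterByExpr by group 13384 genes remained. TMM scaling, 4 group means over all 12 libraries and the quasi-likelihood test gave 6 contrasts: each time against vehicle and each pair of times. Benjamini-Hochberg adjustment ran over all 13384 genes and the threshold was 0.05. Adjusted p-values come from this fit unless another is named. The standard error is the log2 fold change divided by the square root of its F statistic. With 3 libraries a group, the smallest two-sided p of an exact permutation test is 0.1. Correlations used log2 CPM (prior count 2). The script was tested on simulated data. No 2 libraries of the same group agreed within sampling noise.

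The members, the 9 pathway lists (written from textbook knowledge) and the 9 cell type lists were chosen with earlier results of these data known. All members were described. From each list up to 4 genes that passed, with the smallest p, were named, and for Scd1, Pcx and Gpd1 the 5 genes with the highest correlation, leaving out predicted names. Alternatives were DESeq2 1.42.0 size factors in edgeR, the DESeq2 Wald test, library totals alone, no filter on low counts, a fit of only the 2 groups, a block for the replicate number, and fits that each left out 1 library. Counting error alone limits genes of few reads such as Gpd1 in vehicle.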

Additional observations from a re-analysis of the deposited data

Results flagged for a closer look

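Levels of several genes after CPI-0209 differed between collection times by a test of the difference itself. No vehicle group was labelled by collection time, so a change in the effect of CPI-0209 and a change with the time of collection cannot be told apart. Scd1 and Pcx were lower at 24 h than at 6 h, with log2 fold changes of -1.12 (edgeR adjusted p = 0.0324) for Scd1 and -1.59 (edgeR adjusted p = 0.0392) for Pcx, and in both genes 3 of 3 libraries at 24 h lay below all of those at 6 h. Both genes were chosen for their rise over vehicle in contrasts that share these libraries, and high 6 h libraries favour both the choice and the fall. Each of the 2 calls was kept in only 3 of 12 fits that left out 1 library. Of the surrounding pathways, Mpc2 gave -1.70 (edgeR adjusted p = 0.0207) and Fads1 -1.13 (edgeR adjusted p = 0.0285) for 24 h against 6 h. In the same contrast Plin2 gave 1.29 (edgeR adjusted p = 0.0201) and Cpt1a 0.89 (edgeR adjusted p = 0.0269), higher at 24 h in 3 of 3 libraries. For 6 h against 1 h Mlxip gave -1.08 (edgeR adjusted p = 0.0359) and Plin2 -0.9995 (edgeR adjusted p = 0.0498). Mlxip at 6 h was near its vehicle level, and Fads1 at 24 h overlapped vehicle. For Mlxip the 1 h libraries stood apart, and for Fads1 those at 6 h. Over the 30 reticulocyte genes the median log2 fold change for 24 h against 6 h was -1.10 with TMM factors. Library totals moved the median of all genes by 0.50 in that contrast. The part of reticulocytes in these differences was not tested. No call of the contrast of 24 h against 6 h was kept when only those 2 groups were fitted. Every call named in this section was lost in several of the 12 fits that left out 1 library.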

How the results depend on the processing

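Of 324 alternative values for Scd1, Pcx and Gpd1 over the 6 comparisons none changed sign. Those against vehicle come from the contrasts that chose these genes for their rise. Their kept sign follows from the choice and is no measure of robustness. Over the 10 members 49 of 1080 changed sign. The main limits are 3 libraries a group, the wide spread at 24 h, low counts of Gpd1 in vehicle and the dependence of 6 h on scaling. Beyond the alternatives' own construction the cause was not tested. Same-numbered libraries showed little joint deviation (r from -0.11 to 0.17 over 18 pairs, 2 over 0.1). Deviations from means of 3 libraries cannot exclude a shared batch or pairing. The replicate number is used here only to name libraries. With it as a block, members called were 3, 4 and 1 at 1, 6 and 24 h against vehicle and 2 for 24 h against 6 h, as without it, and all genes called were 38, 624, 15, 68, 418 and 1 over the 6 comparisons in the order below.

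Genes called over all those tested were 26 for 1 h against vehicle (151 with the DESeq2 Wald test, 65 with library totals, 288 with no filter, 204 with only 2 groups, 7 to 165 with 1 library left out), 648 for 6 h against vehicle (1091 with the DESeq2 Wald test, 1832 with library totals, 1265 with no filter, 1382 with only 2 groups, 239 to 1266 with 1 library left out), 14 for 24 h against vehicle (81 with the DESeq2 Wald test, 26 with library totals, 237 with no filter, 1 with only 2 groups, 3 to 112 with 1 library left out), 66 for 6 h against 1 h (812 with the DESeq2 Wald test, 674 with library totals, 1227 with no filter, 1720 with only 2 groups, 4 to 1285 with 1 library left out), 235 for 24 h against 6 h (1135 with the DESeq2 Wald test, 2951 with library totals, 1477 with no filter, 0 with only 2 groups, 418 with the block, 0 to 2243 with 1 library left out) and 3 for 24 h against 1 h (25 with the DESeq2 Wald test, 107 with no filter, 1 with the block, 0 to 205 with 1 library left out). Counts of members called against vehicle include Scd1, Pcx and Gpd1, which those contrasts chose, and are a description. Members called were 3 for 1 h against vehicle (1 to 3 with 1 library left out), 4 for 6 h against vehicle (3 to 4 with 1 library left out), 1 for 24 h against vehicle (3 with the DESeq2 Wald test, 3 with library totals, 3 with no filter, 0 with only 2 groups, 0 to 3 with 1 library left out), 0 for 6 h against 1 h (2 with the DESeq2 Wald test, 2 with no filter, 4 with only 2 groups, 0 to 2 with 1 library left out), 2 for 24 h against 6 h (4 with no filter, 0 with only 2 groups, 0 to 4 with 1 library left out) and 0 for 24 h against 1 h (0 in each fit that left out 1 library). Library totals changed the split of higher and lower calls from 543 and 105 to 344 and 1488 for 6 h against vehicle, from 18 and 48 to 17 and 657 for 6 h against 1 h, and from 68 and 167 to 2692 and 259 for 24 h against 6 h.

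With DESeq2 size factors, Gpd2 for 1 h against vehicle was 0.0095. With library totals alone, Scd2 for 6 h against vehicle was -0.31, Fasn for 6 h against vehicle was -0.21, Acaca for 24 h against vehicle was 0.0015, Gpd2 for 24 h against vehicle was 0.056, Fasn for 6 h against 1 h was -0.095, Elovl6 for 6 h against 1 h was -0.028, Elovl6 for 24 h against 6 h was 0.17, Scd2 for 24 h against 1 h was 0.088 and Gpd2 for 24 h against 1 h was 0.086. With the DESeq2 Wald test, Gpd2 for 1 h against vehicle was 0.0095. With only the 2 groups compared, Gpd2 for 1 h against vehicle was 0.012. With the replicate number as a block, Fasn for 1 h against vehicle was 0.0046, Acaca for 24 h against vehicle was 0.074 and Acly for 24 h against 1 h was -0.019. Some values near 0 also changed sign with 1 library left out. For 1 h against vehicle, leaving out 1 library gave Fasn -0.33 to 0.45, Srebf1 -0.25 to 0.077, Acaca -0.17 to 0.97 and Gpd2 -0.052 to 0.071. For 6 h against vehicle, leaving out 1 library gave Acaca -0.67 to 0.47, Scd2 -0.045 to 0.48 and Fasn -0.017 to 0.76. For 24 h against vehicle, leaving out 1 library gave Acaca -0.39 to 0.75, Srebf1 -0.26 to 0.31, Gpd2 -0.086 to 0.049 and Acly -0.044 to 0.54. For 24 h against 1 h, leaving out 1 library gave Elovl6 -0.13 to 0.25, Acly -0.33 to 0.20, Scd2 -0.54 to 0.15, Gpd2 -0.082 to 0.059 and Srebf1 -0.17 to 0.42. For 6 h against 1 h, leaving out 1 library gave Srebf1 -0.78 to 0.073. For 24 h against 6 h, leaving out 1 library gave Fasn -0.22 to 0.80.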
